A study of Mus musculus with 6 samples.

Results

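The genes described here encode cyclin-dependent kinase 1 (Cdk1), its B-type cyclin partners (Ccnb1, Ccnb2 and Ccnb3) and the enzymes that switch the kinase on and off: the phosphatases Cdc25a, Cdc25b and Cdc25c and the inhibitory kinases Wee1, Wee2 and Pkmyt1. They were chosen by symbol, and all 10 were found among the 25239 genes of the count table. Messenger RNA was counted in 6 libraries, each labelled a single mouse oocyte at the germinal vesicle (GV) stage, when the oocyte is arrested in prophase of meiosis I and its nucleus is intact. The mice were CD-1 females (an outbred stock) aged 4 to 6 weeks. Cumulus-oocyte complexes, each an oocyte with its follicle cells, were microinjected with water (3 libraries) or with a mixture of phthalate metabolites (3 libraries). Both groups then went into the same maturation medium, with 10% fetal bovine serum, 200 mIU/mL follicle-stimulating hormone and 50 µg/mL sodium pyruvate, at 37 °C in 5% CO2, and oocytes were collected while still at the GV stage. The sources used here give neither the dose nor the members of the mixture. Both groups were injected, and an uninjected oocyte was not analysed here.

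Cdk1 bound to a B-type cyclin is the M-phase promoting factor, the kinase that drives a cell into division. WEE1-family kinases and MYT1 (the product of Pkmyt1) phosphorylate Cdk1 and hold it inactive, and CDC25 phosphatases remove those phosphates. In a GV oocyte the balance is held on the inactive side by cyclic AMP and protein kinase A, and its reversal starts breakdown of the germinal vesicle. Much of this control acts on proteins and on translation of stored mRNA, which transcript counts do not measure.

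The libraries held between 252267 and 300917 gene counts. Values are given as counts, as CPM (counts per 1000000 gene counts of the library) and, where genes are compared with each other, as CPM per kb of the longest protein-coding transcript in GENCODE M21. Libraries are called oocytes, as their titles have it. The protocol can also be read as 1 oocyte for a group, and the 3 libraries of a group would then share that oocyte and differ only by their preparation. The 3 values of a group are in the order of oocytes 1, 2 and 3. The labels name no animal or culture behind the oocytes, so each group was treated as 1 sample, no test of the treatment was made, and differences between oocytes of a group may be technical. A ratio of phthalate to water is that of the summed counts, scaled by TMM factors (a correction for differences in RNA composition), with an exact 95% interval that covers counting error only. The oocyte label was checked with 10 oocyte markers, of which 9 had counts. Their sum was 21600 to 25300 CPM in water oocytes and 20500 to 23000 CPM in phthalate oocytes, and Sohlh1 was at 0. Of 15 cumulus and granulosa markers, 8 were at 0 in every library, among them Amh, Foxl2 and Gja1. The sum of this list was 137, 76.4 and 45.8 CPM in water oocytes 1, 2 and 3 and 67.4, 67.8 and 36.4 CPM in phthalate oocytes 1, 2 and 3. Most of it was Nr5a2, and without that gene the sums were 18.6, 0 and 14.1 against 3.96, 16.9 and 7.27 CPM.

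Ccnb1 and Wee2 dominated the set. Together they held 77.4% of the 3173 counts of the 10 genes, and Ccnb1 alone held 55.1%. The whole set took 0.192% of all counts in the water group (95% exact binomial interval 0.182 to 0.201) and 0.187% in the phthalate group (0.178 to 0.197). By oocyte the share was 0.184%, 0.180% and 0.210% for water and 0.145%, 0.184% and 0.228% for phthalate, so the groups overlapped.

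In CPM per kb, averaged over the 6 oocytes, the order of levels was Ccnb1 (418.4), Wee2 (145.8), Ccnb2 (46.7), Cdc25a (35.1), Pkmyt1 (23.4), Cdc25b (18.2), Cdk1 (17.0), Cdc25c (5.78), Ccnb3 (5.43) and Wee1 (3.53). Of 12541 genes with a count and a length, Ccnb1 ranked 180, Wee2 ranked 561 and Wee1 ranked 7277. Ccnb1 lay above Wee2, and Wee2 above Ccnb2, in 6 of 6 oocytes with no overlap of their ranges. All neighbours further down had overlapping ranges. The places of Cdc25c and Ccnb3 rest on the mean of both groups: Ccnb3 was the higher of the pair in the 3 water oocytes and Cdc25c in the 3 phthalate oocytes. The order depended on the transcript length used. With the median length of the annotated coding transcripts, which include partial ones, Wee2 reached 535.8 and Ccnb1 486.7 CPM per kb. Cdk1 then stood at 59.3, above Ccnb2.

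**Figure D1:**
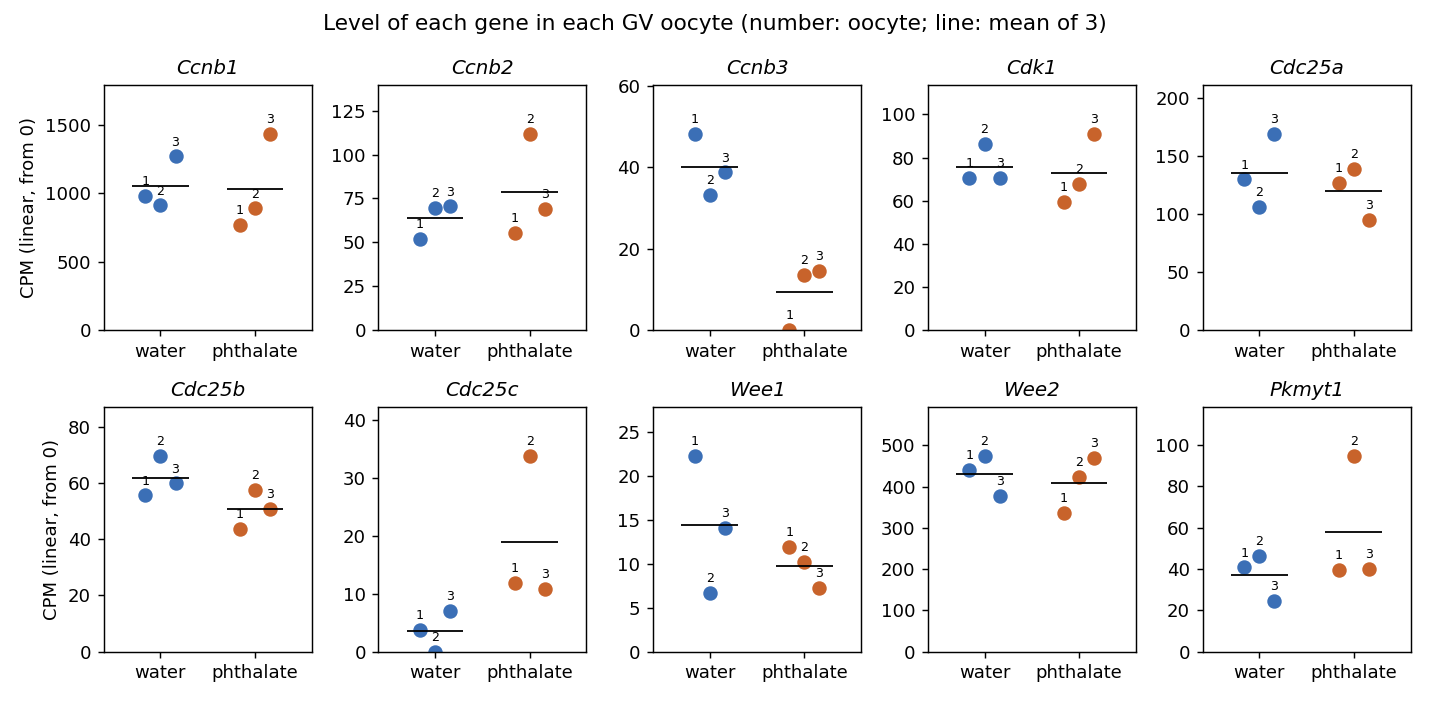
CPM of each gene (vertical axis, linear from 0, scaled for each panel) in the 3 water and 3 phthalate oocytes, with points numbered by oocyte and a line at the mean of each group. The groups overlap in 8 panels. In the Ccnb3 panel the water oocytes lie above the phthalate oocytes, and in the Cdc25c panel they lie below. Among all 12804 genes with a count, 7.61% had groups that did not overlap.

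Among the cyclins, Ccnb1 encodes the main B-type cyclin of M phase. It lies on chr13:100778650-100786570, minus strand (GRCm38, the assembly called mm10 in the submitters' processing notes). It had 264, 274 and 360 counts after water and 194, 262 and 394 after phthalate. In CPM these are 979.6, 910.6 and 1269 against 769, 888 and 1433. The phthalate group held both the lowest and the highest oocyte, with the water oocytes between them. The summed counts were 898 and 850, a log2 ratio of -0.0071 (95% interval -0.14 to 0.13). The value moved outside that interval when single oocytes were left out, to 0.15 without water oocyte 3, to 0.17 without phthalate oocyte 1 and to -0.36 without phthalate oocyte 3. The highest oocyte had 1.86 times the CPM of the lowest, against a median of 1.53 over 398 genes with a mean count of 100 to 500.

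Ccnb2 encodes the second B-type cyclin of dividing cells, which also drives Cdk1 when the oocyte resumes meiosis. It lies on chr9:70407692-70421547, minus strand. It had 14, 21 and 20 counts after water and 14, 33 and 19 after phthalate. Phthalate oocyte 2 stood apart, with 111.8 CPM against 52.0 to 70.5 CPM in the other 5 oocytes. The log2 ratio was 0.34 (-0.20 to 0.88), and without phthalate oocyte 2 it was -0.0004. RefSeq lists the pseudogenes Ccnb1-ps and Ccnb2-ps, neither of which is among the genes counted. How reads shared with such copies were counted is not given in the sources used here, so the counts of Ccnb1 and Ccnb2 are uncertain to that extent.

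Ccnb3 encodes a cyclin with its strongest known role in the germ line, where it promotes anaphase of meiosis I in the oocyte. It lies on chrX:6979652-7041619, minus strand. It had 13, 10 and 11 counts after water and 0, 4 and 4 after phthalate. In CPM the values are 48.2, 33.2 and 38.8 against 0, 13.6 and 14.5, where a count of 0 allows up to 11.9 CPM (3 counts in phthalate oocyte 1). Every phthalate oocyte lay below every water oocyte.

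Over a group, Ccnb3 had 34 counts with water (exact Poisson interval 23.5 to 47.5) and 8 with phthalate (3.45 to 15.8). The log2 ratio was -2.02 (-3.34 to -0.88), a level 4.04-fold lower. Leaving out 1 oocyte gave -2.47 (without phthalate oocyte 3) to -1.47 (without phthalate oocyte 1, the oocyte at 0). With counts halved to allow for both mates of a read pair, the interval was -4.05 to -0.40. Ccnb3 did not pass the filter on low counts. Among 1853 genes with a total of 30 to 60 counts, where Ccnb3 lies with 42, 8.80% were at least 2-fold lower with phthalate, 6.15% had all phthalate values below all water values, and 4.05% met both. The library totals overlapped between the groups, as did the sums of cumulus and granulosa markers. Rn45s, the ribosomal RNA precursor, took 2.02% to 2.35% of counts in water oocytes and 2.89% to 3.54% in phthalate oocytes, without overlap. The part of Rn45s in this result was not tested.

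The transcript ends of the B-type cyclins are shown because the cDNA was primed on the poly(A) tail and because stored oocyte mRNAs are commonly controlled from elements there. Each window is 30 bases from the longest annotated coding transcript (GENCODE M21, GRCm38), written 5′ to 3′ as DNA on the transcript strand. Capitals mark the polyadenylation signal AATAAA or a match to the cytoplasmic polyadenylation element (CPE, the site bound by CPEB proteins), searched as TTTTAT or TTTTAAT on the transcript strand only.
Ccnb1, chr13:100778653-100778682: tatgttgctAATAAAcatagttttcgattt
Ccnb2, chr9:70407692-70407721: tattgaaggaaAATAAAgctattgatctac
Ccnb3, chrX:6979652-6979681: taaaaaatttAATAAAatacaatggttact
Ccnb3, chrX:6979702-6979731: tcttgaaattacTTTTATgaaagaagagaa

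Of these cyclins, Ccnb3 had a CPE match in the last 100 bases, starting 68 bases from the end, and the windows searched in Ccnb1 and Ccnb2 held none. Over 20419 protein-coding genes, 62.9% had AATAAA in the last 100 bases, 17.2% had a CPE match and 11.1% had both. Ccnb1 has several annotated ends, and only that of the longest transcript was searched. A match is a description of letters and not a measured site.

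Cdk1 encodes the kinase itself and lies on chr10:69335146-69352938, minus strand. It had 19, 26 and 20 counts after water and 15, 20 and 25 after phthalate. In CPM the ranges were 70.5 to 86.4 and 59.5 to 90.9, so the water range lay inside the phthalate range. The log2 ratio was -0.043 (-0.57 to 0.49) and this interval stops short of a 1.5-fold difference on both sides (1.5-fold is 0.585 on the log2 scale). With counts halved the interval was -0.81 to 0.72 and held such a difference on both. The spread was small for its abundance, with 1.53 between the highest and the lowest CPM against a median of 2.14 over 1706 genes with a mean count of 20 to 50.

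The summed level of the 3 B-type cyclins exceeded that of Cdk1 in every oocyte. In CPM per kb the log2 ratio of the sum to Cdk1 was 4.76, 4.41 and 5.13 after water and 4.67, 4.80 and 4.91 after phthalate, which in linear terms ran from 21.2 (water oocyte 2) to 35.0 (water oocyte 3). The size of this ratio depends on the length taken for Cdk1. With median transcript lengths it ran from 6.94 to 11.5, in the same oocytes. The phthalate values lay inside the water range, and the mean log2 ratios were 4.77 and 4.79. The difference of 0.026 kept no fixed sign, with -0.15 without water oocyte 2 and 0.21 without water oocyte 3. Within the family Ccnb1 made up 82.4% to 92.3% of the level per kb in all 6 oocytes. Ccnb2 held 7.75%, 10.9% and 8.16% after water and 10.5%, 16.9% and 7.23% after phthalate. Ccnb3 held 1.51% to 2.42% after water and 0% to 0.688% after phthalate.

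Among the promoters searched, those of Cdk1 and Ccnb2 held TTTGAA. This is the core of the cell cycle homology region known from genes of G2 and M phase. Promoter windows (250 bases before to 50 after the start, RefSeq, GRCm38.p6) were searched for 7 members: Ccnb1, Ccnb2, Ccnb3, Cdk1, Cdc25a, Cdc25b and Wee2. Those of Cdc25c, Wee1 and Pkmyt1 are not reported here. The matches nearest the start are shown, in capitals, on the gene's strand.
Ccnb2, chr9:70421533-70421562: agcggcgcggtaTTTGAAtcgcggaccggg
Cdk1, chr10:69352910-69352939: taccgcggcgagTTTGAAactgctggcact

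Searched on both strands in 18651 promoters of the same length, TTTGAA was found in 15.9% and the CCAAT box (CCAAT) in 39.2%, with both in 6.66%. Cdk1 and Ccnb2 each had 2 TTTGAA and 3 CCAAT matches. Ccnb1 had 2 CCAAT matches and 0 of TTTGAA, and Ccnb3 had 0 of either. These letters describe the windows and no factor was measured on them.

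**Figure D2:**
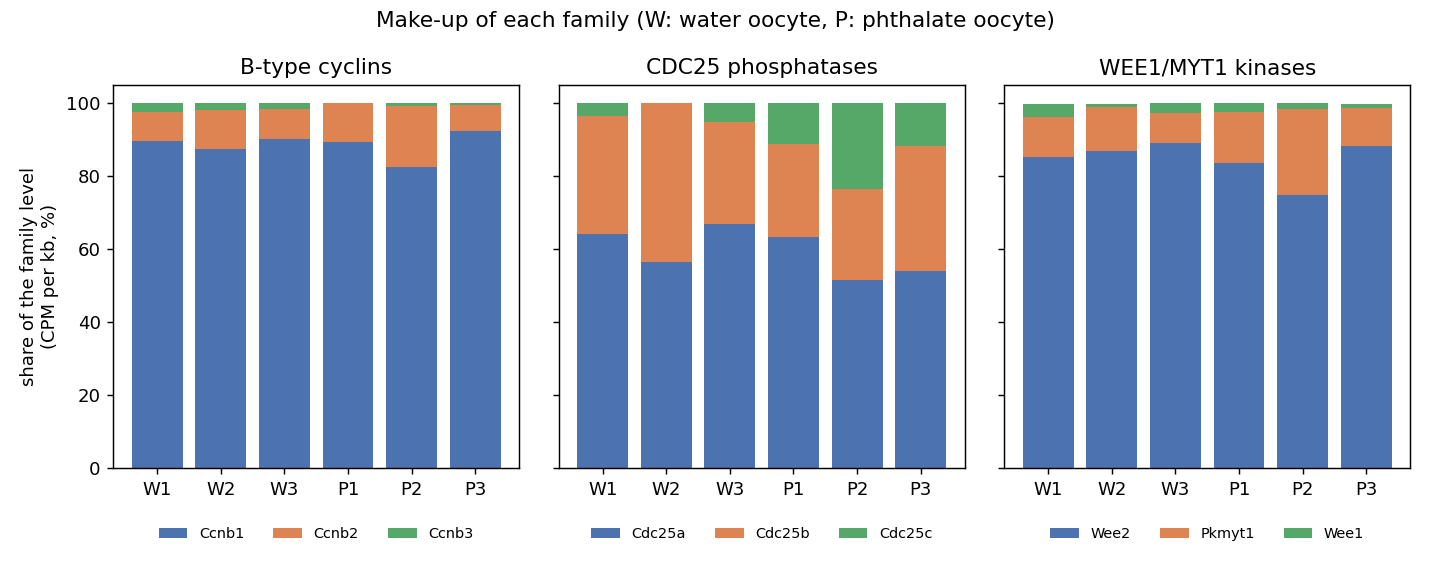
Share of each paralog (vertical axis, percent of the family's summed CPM per kb) in the 6 oocytes (horizontal axis; W, water; P, phthalate), for the B-type cyclins, the CDC25 phosphatases and the WEE1 and MYT1 kinases. Ccnb1 makes up 82.4% or more and Wee2 74.8% or more of its family in each oocyte, while Cdc25a makes up 51.5% to 66.9%.

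Cdc25a made up the largest share of the CDC25 level per kb in each of the 6 oocytes. Cdc25c, the smallest, held 3.43%, 0% and 5.21% after water and 11.1%, 23.4% and 11.7% after phthalate, and in phthalate oocyte 2 it came near Cdc25b (25.1%). Cdc25a (chr9:109875579-109893895, plus strand) encodes the phosphatase best known from entry into S phase, which also acts at meiotic resumption. It had 35, 32 and 48 counts after water and 32, 41 and 26 after phthalate. The groups overlapped, with a log2 ratio of -0.14 (-0.55 to 0.26). Leaving out 1 oocyte gave -0.29 to 0.058.

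Cdc25b (chr2:131186949-131198497, plus strand) encodes the phosphatase that mouse oocytes require to resume meiosis. It had 15, 21 and 17 counts after water and 11, 17 and 14 after phthalate. In CPM the ranges were 55.7 to 69.8 and 43.6 to 57.6, and they overlapped through phthalate oocyte 2 alone. The log2 ratio was -0.26 (-0.88 to 0.35), and it was negative with each oocyte left out in turn (-0.35 to -0.15). From 95 counts in all, the interval held both no difference and a 1.5-fold lower level with phthalate.

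Cdc25c (chr18:34732993-34751533, minus strand) encodes the phosphatase of mitotic entry, whose loss mice tolerate. It had 1, 0 and 2 counts after water and 3, 10 and 3 after phthalate. In CPM the water oocytes stood at 3.71, 0 and 7.05 and the phthalate oocytes at 11.9, 33.9 and 10.9, so every phthalate oocyte lay above every water oocyte. A count of 0 in water oocyte 2 allows up to 9.97 CPM. The nearest values across the groups were 2 counts (water oocyte 3) and 3 counts (phthalate oocytes 1 and 3). The log2 ratio of 16 to 3 summed counts was 2.49 (0.68 to 4.91). Without phthalate oocyte 2 it was 1.74, without water oocyte 3 it was 3.49, and without water oocyte 2 it was 1.87. Its size also depends on how the oocytes are combined, since the difference of mean log2 CPM with a prior count of 2 was 1.23. With counts halved, the interval was -0.058 to 6.48 and included 0. Cdc25c was below the filter. Genes on the opposite strand overlap it (Gm3550) and Cdc25b (Spef1, with 2 counts over the 6 libraries). Among 2474 genes with a total of 10 to 29 counts, 17.1% were at least 2-fold higher with phthalate, and 4.61% were so with groups that did not overlap.

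On the inhibitory side, Wee2 encodes the oocyte-specific WEE1 paralog (WEE1B), which keeps Cdk1 phosphorylated during prophase arrest and acts again at the exit from metaphase II. It lies on chr6:40439088-40466813, plus strand. It had 119, 143 and 107 counts after water and 85, 125 and 129 after phthalate. In CPM the ranges were 377.1 to 475.2 and 336.9 to 469.2. The groups overlapped almost throughout, with a log2 ratio of -0.050 (-0.27 to 0.17). Leaving out 1 oocyte gave -0.20 to 0.082.

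The end of the longest Wee2 transcript held 2 CPE matches, the most among the 9 members searched. They are shown with the polyadenylation signal in the same form as for the cyclins.
Wee2, chr6:40466756-40466785: ctttttaacataTTTTAATccagatcattg
Wee2, chr6:40466779-40466808: atcattgtaAATAAAgaTTTTATcttatcc

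The matches start 46 and 18 bases from the transcript end, on either side of the signal at 26. Outside Wee2 and Ccnb3, the windows searched in the members held 0 CPE matches.

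Pkmyt1 encodes MYT1, the membrane-bound kinase that phosphorylates Cdk1 in the cytoplasm. It lies on chr17:23726336-23736735, plus strand. It had 11, 14 and 7 counts after water and 10, 28 and 11 after phthalate. Phthalate oocyte 2, at 94.9 CPM, stood above the other 5, which lay between 24.7 and 46.5 CPM, and the groups overlapped. The log2 ratio was 0.69 (0.015 to 1.38), a level 1.61-fold higher, and without phthalate oocyte 2 it was 0.13. With counts halved the interval was -0.28 to 1.69. Paqr4, which overlaps Pkmyt1 on the opposite strand, had 19 counts over the 6 libraries, and the use of strand in counting is not given in the sources used here.

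Wee1 (chr7:110122046-110143286, plus strand) encodes the nuclear kinase of somatic cells. It had 6, 2 and 4 counts after water and 3, 3 and 2 after phthalate. The ranges of 6.65 to 22.3 and 7.28 to 11.9 CPM overlapped. The log2 ratio was -0.51 (-2.01 to 0.90), and the counting interval included 0. It was -0.077 without water oocyte 1 and -0.86 without water oocyte 2. Per kb, Wee2 made up 85.2%, 86.9% and 89.0% of the level of the 3 kinases after water and 83.6%, 74.8% and 88.2% after phthalate. Wee1 made up 1.03% to 3.63% over all 6.

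The summed level of the CDC25 phosphatases was below that of the inhibitory kinases in every oocyte. In CPM per kb the ratio of the sums was 0.310, 0.274 and 0.474 after water and 0.395, 0.379 and 0.261 after phthalate. The groups overlapped, with the lowest value in phthalate oocyte 3 and the highest in water oocyte 3. With median transcript lengths the ratio was lower, from 0.089 to 0.165, with the same oocytes at the ends. The mean log2 ratios were -1.55 and -1.56. Their difference of -0.014 ran from -0.18 without water oocyte 2 to 0.22 without water oocyte 3, and it was -0.22 without Cdc25c.

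Set side by side, 7 of the 10 genes passed the filter on low counts, and Ccnb3, Cdc25c and Wee1 did not. Of the 7, 2 were higher and 5 lower with phthalate, with a median log2 ratio of -0.043, against 0.0089 over the 4644 genes that passed, of which 51.2% were higher and 48.8% lower. The median of the 7 kept no fixed sign, with -0.20 without phthalate oocyte 3 and 0.091 without phthalate oocyte 1. At least 1.5-fold differences were seen for 1 of the 7 (Pkmyt1, higher), where 15.1% of the 4644 genes had one and 6.96% had one toward phthalate. Of the 7, 0 had groups that did not overlap, against 10.0% of the 4644 genes.

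**Figure D3:**
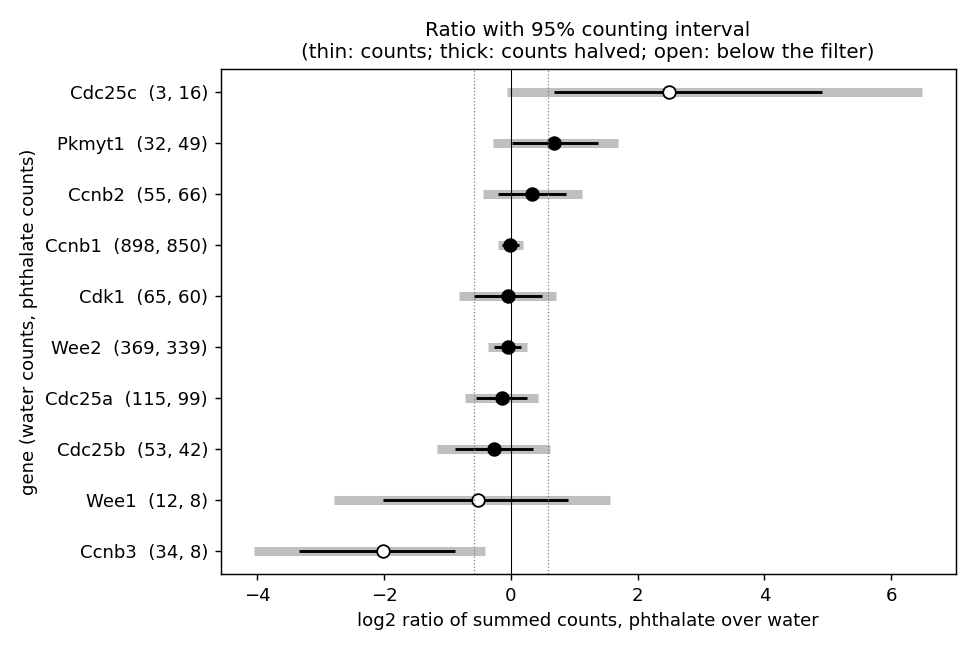
Log2 ratio of summed counts, phthalate over water (horizontal axis), for each gene (vertical axis, with the summed water and phthalate counts). Thin lines are 95% counting intervals, thick grey lines the same with counts halved, dotted lines mark 1.5-fold, and open circles are genes below the filter. The Ccnb3 interval stays below 0 in both forms, and those of Cdc25c and Pkmyt1 reach 0 when counts are halved.

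Phthalate oocyte 2 had the highest CPM of all 6 oocytes for Ccnb2, Cdc25c and Pkmyt1, the 3 genes with a ratio above 0. Phthalate oocyte 1 had the lowest CPM for 5 genes (Ccnb1, Ccnb3, Cdk1, Cdc25b and Wee2) and the highest for 0. Of the 7 genes past the filter, 4 were lowest in phthalate oocyte 1 and 2 were highest in phthalate oocyte 2. Over the 4644 filtered genes those shares were 17.6% and 17.2%, and phthalate oocyte 1 was the highest for 21.3%. Since the genes of an oocyte share its library, these counts are a description. Without phthalate oocyte 1, 4 of the 10 genes had a ratio below 0, against 7 with all oocytes.

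**Figure D4:**
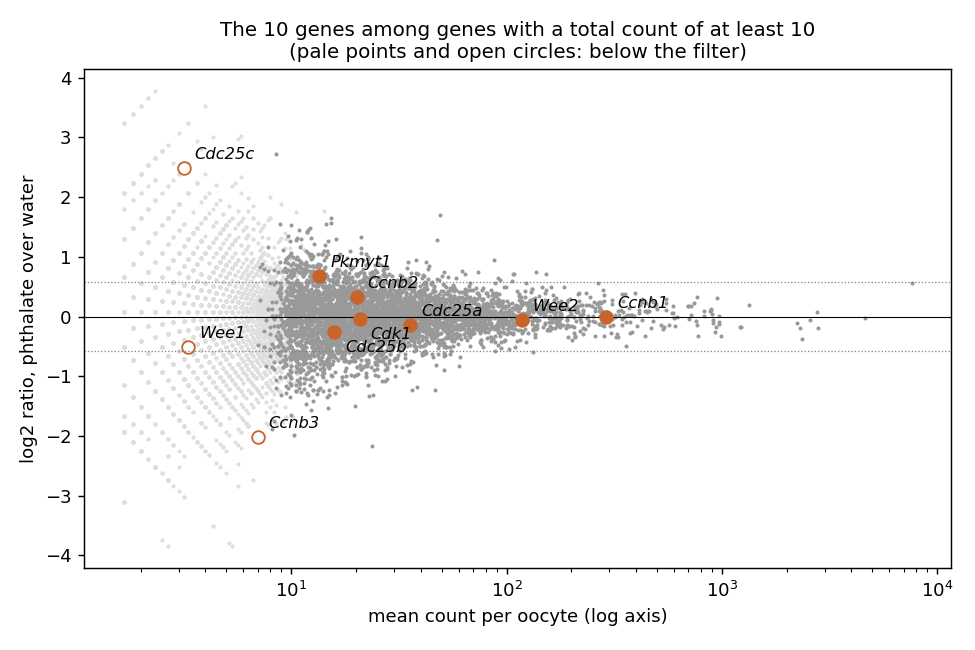
Log2 ratio of phthalate over water (vertical axis) against the mean count per oocyte (log axis) for the 8780 genes with a total count of at least 10, dark where they pass the filter. The 7 members that pass it (filled circles) lie within the cloud, and Ccnb3, Cdc25c and Wee1 (open circles) lie where the cloud is widest.

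Genes around the switch were taken from 5 lists. Of 65 listed genes in the table, 43 passed the filter, with 19 higher and 24 lower with phthalate and a median log2 ratio of -0.024. The counts of higher and lower genes in each list stand beside 51.2% higher and 48.8% lower over all filtered genes, and with 6 to 13 genes to a list they are given as a description. At least 1.5-fold differences were seen for 3 of the 43, all lower (Mastl, Ccnh and Akt1). Of all filtered genes, 15.1% differed so in either direction and 8.14% were lower, so the share of listed genes that were lower was near that of all genes. Intervals of list genes are given for the counts as deposited only. They may be too narrow if both mates of a read pair were counted.

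Among partners and inhibitors of CDKs, 2 of 6 were higher and 4 lower, with a median of -0.28. Cks1b and Cks2 encode small subunits that bind Cdk1. Cks1b had summed counts of 206 and 178, a log2 ratio of -0.14 (-0.44 to 0.16). Cks2 had 65, 38 and 47 counts after water and 25, 26 and 51 after phthalate, a ratio of -0.48 (-0.86 to -0.11), with overlap through phthalate oocyte 3. Ccnh, the cyclin of the CDK-activating kinase, had 39 and 24 summed counts and a ratio of -0.63 (-1.43 to 0.14).

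Mastl encodes Greatwall, the kinase that restrains the phosphatase opposing Cdk1. It had 32, 22 and 40 counts after water and 23, 23 and 13 after phthalate, which overlapped, and a log2 ratio of -0.60 (-1.09 to -0.11). Arpp19, which encodes a Greatwall substrate, had 222 and 244 summed counts and a ratio of 0.21 (-0.060 to 0.48). In this list 4 of 7 genes were higher and 3 lower.

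Among kinases and anchors that act on CDC25 and WEE1 proteins, 2 of 10 were higher and 8 lower, with a median of -0.18. Ywhaz and Ywhag encode 14-3-3 proteins, which bind phosphorylated CDC25. Their log2 ratios were -0.28 (-0.51 to -0.047) and -0.18 (-0.43 to 0.057). Akt1, a kinase gene with 30 and 18 summed counts, had a ratio of -0.66 (-1.59 to 0.23).

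Of the genes for turnover of cyclin B and WEE1 proteins, 7 of 13 were higher and 6 lower. Skp1a, a subunit of SCF ubiquitin ligases, had a log2 ratio of -0.20 (-0.31 to -0.090), with 237 to 622 counts in the phthalate oocytes on both sides of the 399 to 593 in the water oocytes. Bub1b, a checkpoint gene, had a ratio of -0.076 (-0.21 to 0.061). Of the genes for translation of stored mRNA, 4 of 7 were higher and 3 lower. Cpeb1, which encodes the protein that binds CPEs, had 514 and 551 summed counts and a ratio of 0.17 (-0.0036 to 0.35), and Dazl, another activator of translation, had a ratio of -0.024 (-0.21 to 0.16).

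The genes whose profile over the 6 oocytes was most like that of Ccnb1, among 448 genes averaging 100 or more counts, were Natd1, Zbed3 and Ftdc2. With each gene centred on its own mean in log2 CPM, the root-mean-square distance to Ccnb1 was at most 0.116 for these, against a median of 0.354. These values describe 6 libraries that share their depth and composition with every gene compared.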

How the data were processed

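The file deposited by the authors holds raw counts in 6 columns, matched to the samples by library name, for 25239 gene symbols and for 92 synthetic ERCC RNAs. Libraries were made by Smart-seq3 with oligo(dT) priming and sequenced as pairs of 150 bp, per the labels' protocols. The submitters' processing notes name cutadapt, Trimmomatic, HISAT2, DESeq2 and mm10. The counting tool, annotation, use of strand and treatment of molecular identifiers are not given in the sources used here. Of the counts from 1 to 20, 69.9% were even, as when both mates of a pair are counted, so counting intervals from the counts may be too narrow.

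ERCC counts were left out of totals. Low genes were removed with filterByExpr of edgeR 4.0.16 (R 4.3.3), at a minimum count of 10 and a minimum total of 15. Summed counts of a group were divided by summed library totals times TMM factors and expressed as log2 ratios with exact conditional (Clopper-Pearson) 95% intervals, computed with scipy 1.17.1. Levels per kb assume reads along the whole transcript. A GENCODE M21 length was found for 24358 of the symbols. No test was made: without an animal or culture named behind the oocytes, each group was treated as 1 sample.

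All 10 genes are named. In each list the 2 genes with the highest mean count are named, and those past 1.5-fold with a mean count of at least 20. Ccnh and Akt1 fall outside that rule and were named after their values were seen. Genes most like Ccnb1 were the 3 with the smallest distance. The members and lists were chosen with earlier results of these data known. Alternatives were other scalings (library totals, DESeq2 1.42.0 size factors, totals without Rn45s), a mean of log2 CPM with a prior count of 2, other filters, other transcript lengths, halved counts and each oocyte left out. The ratio of mean CPM, the classes of 30 to 60 and 10 to 29 total counts, and the balances without Ccnb3 or Cdc25c were added after seeing the data.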

Additional observations from a re-analysis of the deposited data

How the results depend on the processing

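Of 60 values of the 10 ratios with single oocytes left out, 57 lay within the counting interval of the ratio reported, and the other 3 were those of Ccnb1. Ccnb1 has the most counts and the narrowest interval, so this number depends on depth and does not rank the genes by stability. Without phthalate oocyte 2, Pkmyt1 went from 0.69 to 0.13 and Ccnb2 from 0.34 to -0.0004, inside their wider intervals. Other scalings shift all genes by one amount and halved counts change only the intervals, so neither bears on how the genes compare. For Ccnb3 and Cdc25c, whose groups do not overlap, an oocyte left out can change the size of the ratio but not its sign. With single oocytes left out, the number of the 10 genes with a ratio below 0 ranged from 4 to 7. The share of all genes at least 1.5-fold different was 15.1% in the filtered set, 8.12% at a mean count of at least 20 and 39.7% with no filter. It was 38.7% at a total of 30 to 60 counts and 57.2% at 10 to 29, so folds of Ccnb3, Cdc25c and Wee1 are read at a depth where large ratios are common. The mean of log2 CPM with a prior count of 2 gave -1.64 for Ccnb3 and 1.23 for Cdc25c. The titles number the libraries 1 to 3 in both groups but name no animal or culture that would pair them, and each group was treated as 1 sample by choice. No paired analysis was possible because no label pairs a water library with a phthalate library, and no result here comes from a test.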
